A study of Homo sapiens with 12 samples.

Results

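The genes described here are 9 members of the interleukin-6 (IL-6) cytokine family and its signaling path, chosen by name: the ligands IL6, IL11, LIF and CLCF1, the receptor subunits IL6R, IL6ST, OSMR and LIFR, and the feedback inhibitor SOCS3. All 9 were found among the 57773 genes of the count files, and all 9 passed the filter on low counts, with 229 to 42498 reads per library. The mRNA levels were measured by poly(A) RNA-seq in 12 libraries of WI-38, a normal human lung fibroblast line used at population doubling levels (PDL) 15 to 25. Every culture was transfected with 25 nM of a pooled siRNA reagent, so the controls carried an siRNA too. The 4 groups of 3 libraries were siCtrl_Prolif (non-targeting siRNA, 8 days in the vehicle DMSO), siCtrl_Sen (the same siRNA, 8 days in 50 µM etoposide, a DNA-damaging topoisomerase inhibitor that drives these cells into senescence), siNTRK2_Sen and siBDNF_Sen (etoposide, with siRNA against the receptor TrkB or against its ligand BDNF). The study used these groups to ask what senescent cells express and what changes when either part of the BDNF-TrkB loop is silenced.

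The cytokines IL-6, IL-11, LIF and CLCF1 all signal through gp130, the shared receptor chain encoded by IL6ST. IL-6, IL-11 and CLCF1 first bind a private receptor (IL6R, IL11RA and CNTFR). CLCF1 with CNTFR, and LIF on its own, pair gp130 with LIFR, and oncostatin M pairs it with OSMR. The assembled receptor activates JAK kinases, which phosphorylate STAT3, and STAT3 induces SOCS3, which then shuts the receptor off. In fibroblasts these cytokines are known as part of the senescence-associated secretory phenotype, the set of factors that senescent cells release.

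The start regions of the ligand genes IL6 and IL11 are shown because transcription factors of inflammatory signaling are known to act there. Each window holds up to 250 bases before the start of the gene's canonical transcript, on the gene's own strand of hg19 (GRCh37), and ends sooner for IL6, where exons of other IL6 transcripts begin. Capitals mark matches to 4 motifs searched on both strands: the NF-κB consensus, AP-1 (TGANTCA), C/EBP (TTGCNNAA) and STAT (TTCNNNGAA).
IL6, chr7:22766569-22766765, plus strand: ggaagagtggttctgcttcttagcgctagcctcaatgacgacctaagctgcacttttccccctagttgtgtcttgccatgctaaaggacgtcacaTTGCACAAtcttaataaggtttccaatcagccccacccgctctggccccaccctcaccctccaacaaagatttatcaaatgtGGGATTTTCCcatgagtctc
IL11, chr19:55881832-55882081, minus strand: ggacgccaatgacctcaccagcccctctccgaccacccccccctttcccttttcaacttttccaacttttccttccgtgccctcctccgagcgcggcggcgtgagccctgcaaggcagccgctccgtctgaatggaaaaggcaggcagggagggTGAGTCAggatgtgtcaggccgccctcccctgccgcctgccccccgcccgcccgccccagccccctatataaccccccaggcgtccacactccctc

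The IL6 window held 1 C/EBP match (TTGCACAA) and, nearer the start, 1 NF-κB match (GGGATTTTCC). IL11 held 1 AP-1 match (TGAGTCA), and no match overlapped another. Of the receptor genes, IL6ST held 1 NF-κB match and OSMR 1 C/EBP match in the full 250-base window, while these letters did not occur before IL6R or LIFR. For comparison, among 19110 protein-coding windows of 250 bases, 11.4% held the NF-κB consensus, 4.65% AP-1, 7.02% C/EBP and 5.62% STAT.

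The library totals were 31567912 to 72328151 counts, so that 3 counts correspond to 0.0427 to 0.0916 CPM, the count scaled to a common library size. Replicate 3 of siCtrl_Prolif deviated most from its group mean (root mean square 0.0966 log2 over 10528 genes, with 0.0552 as the lowest). Mitochondrial genes took 1.598 to 1.99% of counts in siCtrl_Prolif, 3.33 to 3.65% in siCtrl_Sen, 2.50 to 2.85% in siNTRK2_Sen and 1.78 to 2.38% in siBDNF_Sen. NTRK2 itself was near the floor of 3 counts, with 7, 15 and 10 counts in siCtrl_Sen, 0 in each siNTRK2_Sen library and 10, 23 and 29 in siBDNF_Sen. BDNF mRNA was 158 ± 4.57 CPM in siCtrl_Prolif, 162 ± 6.32 CPM in siCtrl_Sen, 205 ± 1.20 CPM in siNTRK2_Sen and 47.1 ± 2.44 CPM in siBDNF_Sen (SD, n = 3). All 10 fibroblast markers were present in every group, and they summed to 32258 to 34172 CPM in siCtrl_Prolif, 23264 to 25071 CPM in siCtrl_Sen, 27309 to 30215 CPM in siNTRK2_Sen and 24064 to 24632 CPM in siBDNF_Sen. In senescence 8 were called lower and 1 higher, with siNTRK2 1 lower and 6 higher, and with siBDNF 6 lower and 2 higher. Over all tested genes, 58.1%, 21.1% and 20.5% were called in the same order. The 6 leukocyte markers summed to 0.162 to 0.215 CPM in siCtrl_Prolif, with 4 of 6 at 0, and to 1.75 to 1.95 CPM in siCtrl_Sen, 1.26 to 1.55 CPM in siNTRK2_Sen and 2.12 to 2.30 CPM in siBDNF_Sen. The 3 endothelial markers matched summed to 0.460 to 1.25 CPM in siCtrl_Prolif and 1.47 to 3.14 CPM across the senescent groups, and the 4 epithelial markers to 17.1 to 19.5 CPM and 38.4 to 57.4 CPM. Nearly all of the epithelial sum was the keratin gene KRT19, at 16.7 to 19.2 CPM in siCtrl_Prolif and 45.5 to 56.4 CPM in siCtrl_Sen. The part of these values in the results was not tested. In these bulk samples, fewer cells of a type and less RNA per cell cannot be told apart.

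Per kilobase of exon, counted over all annotated transcripts of a gene, gp130, OSMR and the ligand LIF were the most abundant of the 9 mRNAs. IL6 and IL6R were the least abundant on this scale. In siCtrl_Sen the level of IL6ST was 35.6 ± 2.10 CPM per kb, that of OSMR 18.1 ± 0.305 and that of LIF 16.7 ± 1.31 (SD, n = 3), and the libraries of OSMR and LIF overlapped. SOCS3 (10.5 ± 0.703 CPM per kb) and IL11 (10.1 ± 0.124) came next and overlapped too. They were followed by CLCF1 (7.16 ± 0.0603), LIFR (2.22 ± 0.111), IL6 (1.55 ± 0.0191) and IL6R (1.496 ± 0.260), of which only IL6 and IL6R overlapped each other. The level per kb of the first gene was 26.0 times that of the last in siCtrl_Prolif, 23.8 times in siCtrl_Sen, 28.2 times in siNTRK2_Sen and 25.2 times in siBDNF_Sen. In siCtrl_Prolif no neighbours in this order overlapped, and LIF stood above OSMR by its mean only in siBDNF_Sen (19.7 ± 1.21 against 18.4 ± 0.292 CPM per kb), where their libraries overlapped. Exon lengths came from GENCODE v44 lifted to GRCh37, not from the annotation used for counting. They join the exons of all annotated transcripts of a gene (4321 bases for IL6), which can exceed the length of the mRNA in these cells. The order of the genes and the ratios of first to last depend on these lengths.

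**Figure D1:**
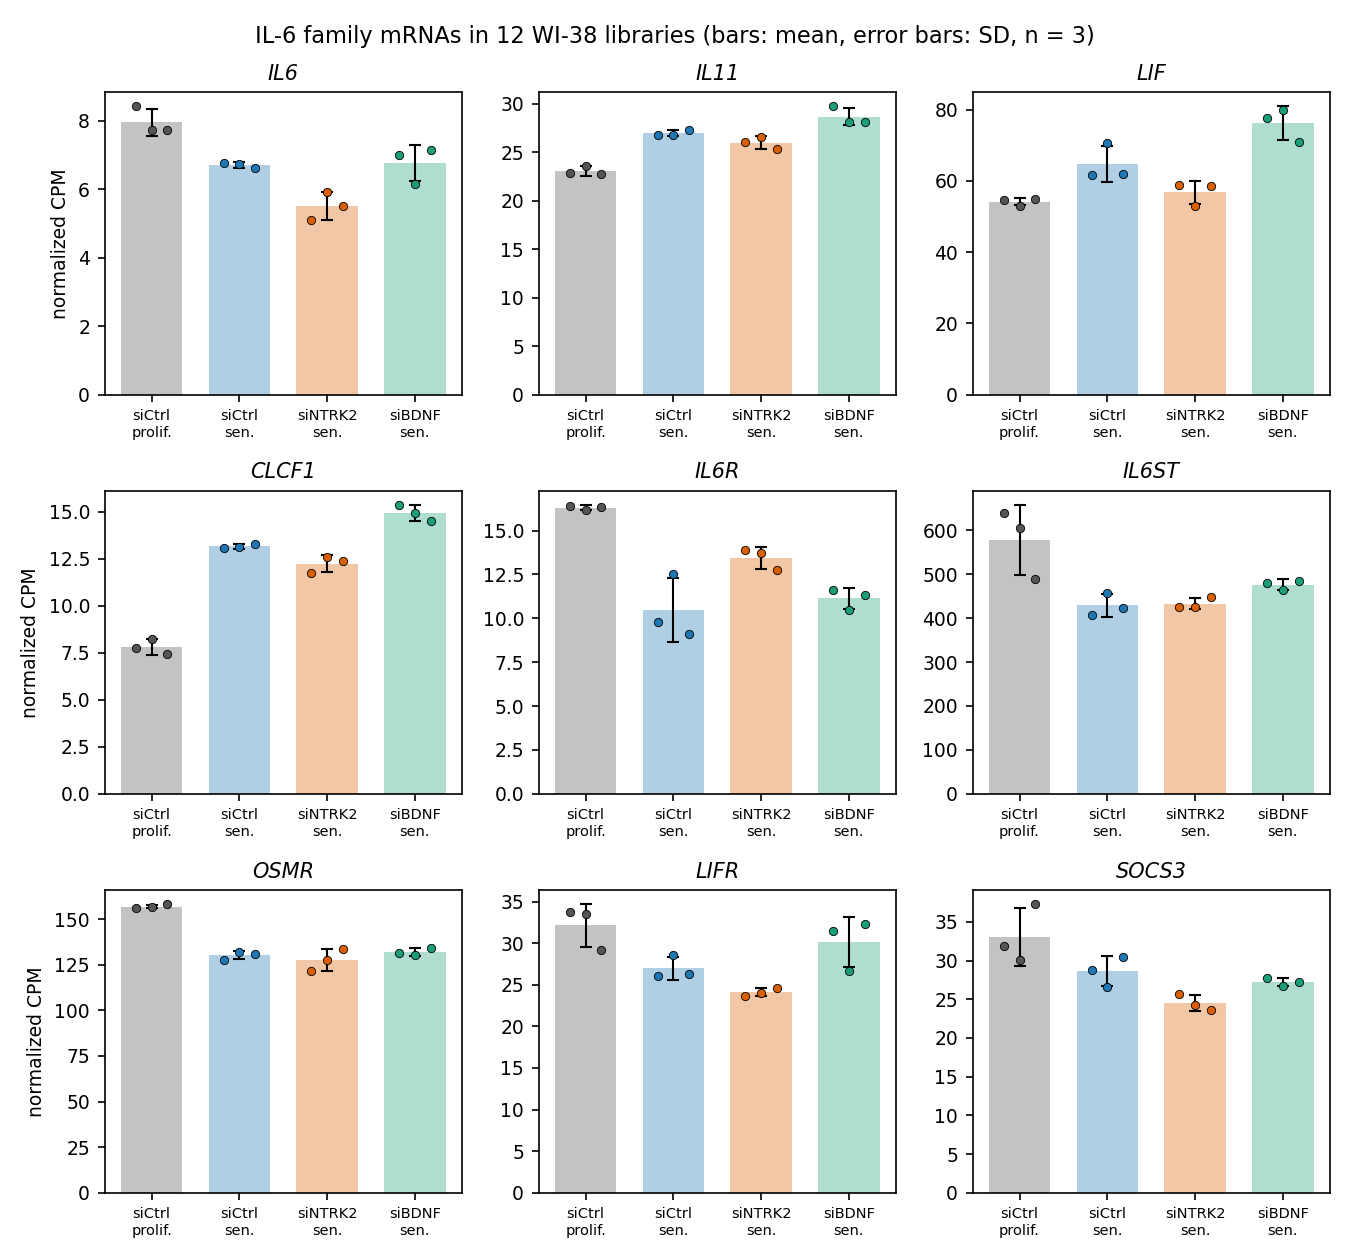
Normalized CPM (y axis, linear, from 0, a scale per panel) of the 9 members in the 4 groups; bars are means, error bars SD (n = 3), points single libraries. CLCF1 is lowest in the 3 proliferating libraries, IL6R and OSMR are highest there, and LIF reaches 71.0 to 80.0 CPM with siBDNF.

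Senescent cells carried more mRNA of 3 of the 4 ligands and less of all 4 receptor subunits than proliferating cells. All 9 members were called in siCtrl_Sen against siCtrl_Prolif (edgeR quasi-likelihood test, adjusted p under 0.05), 3 higher and 6 lower, where 58.1% of 21518 tested genes were called, 29.8% higher and 28.3% lower. None passed an absolute log2 fold change of 1, which 16.7% of tested genes did. The median log2 fold change was 0.24 over the ligands and -0.35 over the receptors, against 0.02 over all tested genes. In 8 of 9 members the libraries of both groups did not overlap, as was the case for 61.3% of tested genes.

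CLCF1, a ligand that acts through CNTFR, LIFR and gp130, showed the largest difference of the 9. Its levels were 7.77, 8.25 and 7.41 CPM in siCtrl_Prolif and 13.04, 13.1 and 13.3 CPM in siCtrl_Sen. The senescent libraries lay close together and all above the proliferating ones, at 1.68-fold (log2 fold change 0.75, SE 0.0772, adjusted p = 8.4e-09, edgeR). CLCF1 (chr11:67131639-67141648) shares 61 exonic bases with the same-strand gene ENSG00000256514, which was counted at 32.4 to 54.2 CPM and was also higher in senescent cells (log2 fold change 0.55, adjusted p = 3.01e-08). Reads in the shared bases cannot be assigned to either gene.

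LIF, which signals through LIFR and gp130, was at 54.5, 53.0 and 55.0 CPM in proliferating cells and at 61.6, 70.6 and 62.1 CPM in senescent cells. The groups were separate, with replicate 2 the highest senescent library (log2 fold change 0.26, SE 0.0600, adjusted p = 6.64e-04, edgeR). IL11, which signals through IL11RA and gp130, was at 22.8, 23.6 and 22.7 CPM in proliferating cells and at 26.8, 26.7 and 27.4 CPM in senescent cells. The 2 groups were again separate, with a log2 fold change of 0.23 (SE 0.0577, adjusted p = 0.00167, edgeR).

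IL6 mRNA went the other way and was low in both states. It was at 8.41, 7.72 and 7.74 CPM in siCtrl_Prolif and at 6.77, 6.74 and 6.61 CPM in siCtrl_Sen, so that every senescent library was below every proliferating one. It fell by 0.25 on the log2 scale (SE 0.0974, adjusted p = 0.0323, edgeR). Over the main fit (edgeR) and 13 alternative analyses the adjusted p ranged from 0.0323 to 0.104, and the call held in 6 of the alternatives. It was lost without siCtrl_Prolif replicate 1 (adjusted p = 0.104), siCtrl_Sen replicate 1 (0.058) or siCtrl_Sen replicate 3 (0.0652), and with DESeq2 (0.0528). IL6 (chr7:22765503-22771621) shares 428 exonic bases with the antisense gene IL6-AS1, counted at 1.53 to 3.004 CPM, and 46 with STEAP1B. Whether reads were counted by strand is not given in the sources used here, so reads of a gene and its antisense partner cannot be told apart. IL6-AS1 was also lower in senescent cells (log2 fold change -0.57, adjusted p = 0.00822). By quantitative PCR scaled to ACTB mRNA, the paper reports a rise of IL6 mRNA in WI-38 cells made senescent with etoposide, opposite in direction to these libraries. That PCR covered several times, in cells with and without siRNA. The paper's cytokine array also showed more IL6 protein in the medium of senescent cells.

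The receptor subunits were all lower in senescent cells. IL6R, the private IL-6 receptor, was at 16.4, 16.2 and 16.3 CPM in proliferating cells and at 9.76, 12.5 and 9.09 CPM in senescent cells. The proliferating libraries were nearly equal and all above the senescent ones, of which replicate 2 was the highest (log2 fold change -0.64, SE 0.0931, adjusted p = 2.01e-06, edgeR). IL6ST, encoding gp130, was at 639, 605 and 488 CPM in proliferating cells and at 406, 456 and 424 CPM in senescent cells. Proliferating replicate 3 was the lowest of its group but still above all senescent libraries (log2 fold change -0.43, SE 0.0651, adjusted p = 3.67e-06). IL6ST (chr5:55230923-55290850) shares 797 exonic bases with the antisense gene ENSG00000262211, counted at 72.8 to 103 CPM and also lower (log2 fold change -0.34, adjusted p = 1.9e-06).

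OSMR, the signaling chain for oncostatin M, was at 156, 157 and 158 CPM in proliferating cells and at 128, 132 and 131 CPM in senescent cells. Both groups were tight and separate, with a log2 fold change of -0.27 (SE 0.0438, adjusted p = 9.53e-06, edgeR). LIFR, the chain that binds LIF, was at 33.7, 33.5 and 29.2 CPM in proliferating cells and at 26.0, 28.5 and 26.3 CPM in senescent cells. Only a narrow gap separated proliferating replicate 3 from senescent replicate 2 (log2 fold change -0.26, SE 0.0718, adjusted p = 0.00361).

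SOCS3 (chr17:76352859-76356158), the feedback inhibitor, was at 31.8, 30.1 and 37.3 CPM in proliferating cells and at 28.8, 26.6 and 30.5 CPM in senescent cells. It is the member whose groups overlapped. SOCS3 fell by 0.20 on the log2 scale (SE 0.0712, adjusted p = 0.0176, edgeR), and the call was lost without siCtrl_Prolif replicate 3 (log2 fold change -0.11, adjusted p = 0.155) or siCtrl_Sen replicate 2 (-0.17, adjusted p = 0.0719). The calls of CLCF1, LIF, IL11, IL6R, IL6ST, OSMR and LIFR held in all 13 alternatives.

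**Figure D2:**
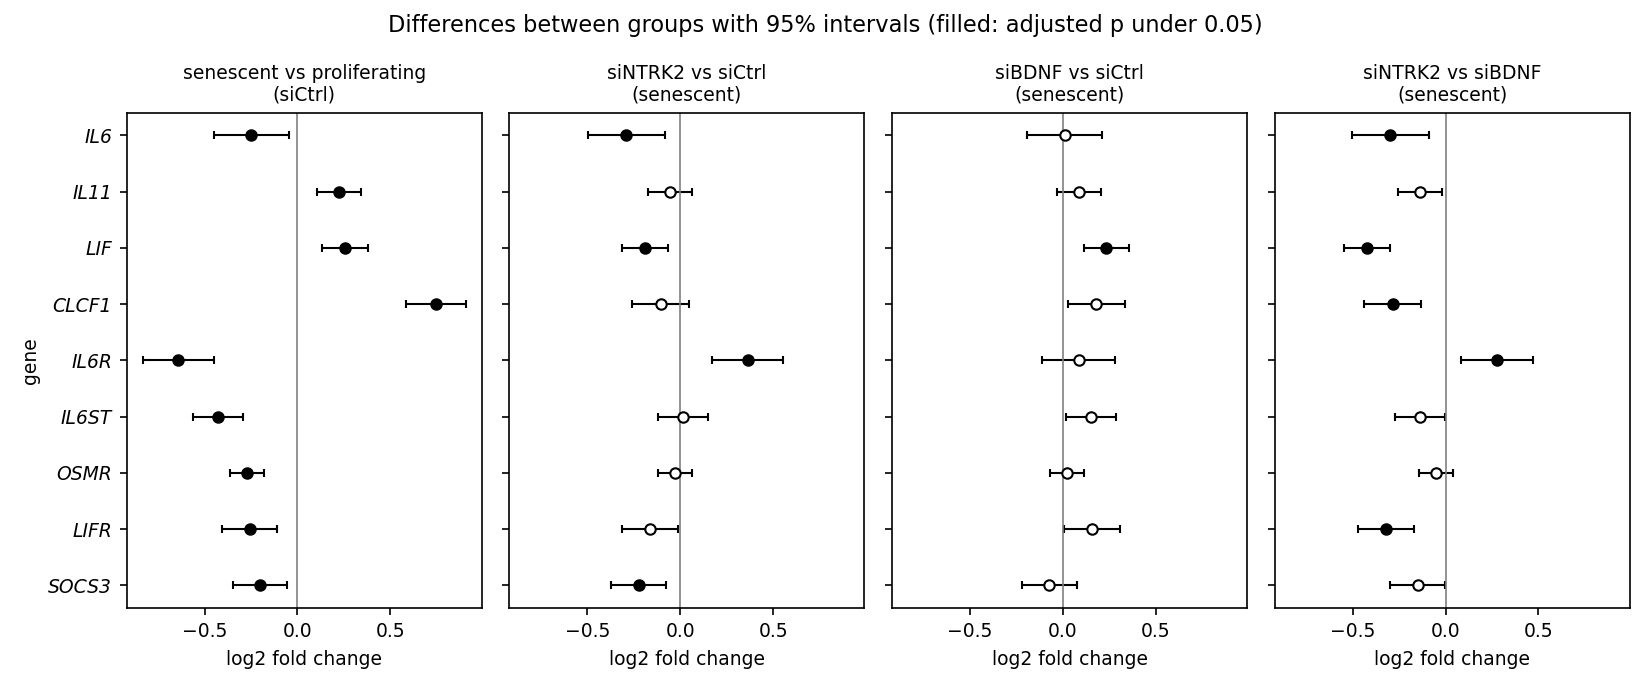
Log2 fold change (x axis) of each member in the 4 comparisons, with 95% intervals of the edgeR fit; filled points have an adjusted p under 0.05. In senescent against proliferating siCtrl cells the 9 points are all filled, from -0.64 for IL6R to 0.75 for CLCF1; with siBDNF the LIF point alone is filled.

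Silencing NTRK2 in senescent cells came with less IL6, LIF and SOCS3 mRNA and more IL6R mRNA. These 4 of 9 members were called in siNTRK2_Sen against siCtrl_Sen (1 higher, 3 lower), where 21.1% of tested genes were called, 11.1% higher and 10% lower. None passed an absolute log2 fold change of 1 (0.957% of tested genes). The libraries of both groups did not overlap in 7 of 9 members, as for 32.8% of tested genes. Scaled by library totals alone, 2 members were called, 1 higher and 1 lower. The comparisons of siNTRK2_Sen and siBDNF_Sen use the same siCtrl_Sen libraries and are not independent of each other.

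IL6 was at 5.09, 5.91 and 5.49 CPM in siNTRK2_Sen, all below the 6.61 to 6.77 CPM of siCtrl_Sen, and fell by 0.29 on the log2 scale (SE 0.0997, adjusted p = 0.0402, edgeR). This call held in 5 of 13 alternatives (adjusted p 0.0326 to 0.148). It was lost without siCtrl_Sen replicate 1 (0.104), 2 (0.089) or 3 (0.0917) and without siNTRK2_Sen replicate 1 (0.148) or 3 (0.0845), each time at a log2 fold change between -0.33 and -0.24. LIF was at 58.9, 52.9 and 58.5 CPM, below all siCtrl_Sen libraries, and fell by 0.19 (SE 0.0597, adjusted p = 0.025, edgeR). Without siCtrl_Sen replicate 2, the highest LIF library of that group, its log2 fold change was -0.11 (adjusted p = 0.207), and without siNTRK2_Sen replicate 2, the lowest, it was -0.13 (adjusted p = 0.153).

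SOCS3 was at 25.7, 24.2 and 23.6 CPM with siNTRK2, below the 26.6 to 30.5 CPM of siCtrl_Sen, and fell by 0.22 (SE 0.0718, adjusted p = 0.0284, edgeR). The call was lost without siCtrl_Sen replicate 1 (adjusted p = 0.0825) or 3 (0.18) and without siNTRK2_Sen replicate 2 (0.0774) or 3 (0.105). IL6R was at 13.9, 13.7 and 12.7 CPM, above the 9.09 to 12.5 CPM of siCtrl_Sen and below the proliferating libraries. It was 1.29-fold higher (log2 fold change 0.36, SE 0.0936, adjusted p = 0.00657, edgeR), or 0.28 on the log2 scale without siCtrl_Sen replicate 3 (adjusted p = 0.0598).

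The other 5 members did not pass the test with siNTRK2. CLCF1 was at 11.7, 12.6 and 12.3 CPM (log2 fold change -0.11, 95% interval -0.26 to 0.05) and IL11 at 26.0, 26.6 and 25.4 CPM (-0.05, interval -0.17 to 0.07). IL6ST was at 426, 425 and 448 CPM (0.01, interval -0.12 to 0.15), OSMR at 122, 127 and 134 CPM (-0.03, interval -0.12 to 0.06) and LIFR at 23.7, 24.0 and 24.7 CPM (-0.16, interval -0.31 to -0.01, adjusted p = 0.122, edgeR). The LIFR libraries lay below all those of siCtrl_Sen, whereas those of IL6ST and OSMR overlapped with them.

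Markers of the cell state moved in the same libraries, with all 6 called, 5 higher and 1 lower, where 21.1% of all tested genes were called. CDKN1A, the p21 cell-cycle inhibitor, was lower with siNTRK2 (log2 fold change -0.50, adjusted p = 2.8e-09, edgeR). CDKN2A, which encodes the cell-cycle inhibitor p16, was higher (0.21, adjusted p = 0.0251), with overlapping groups. The proliferation genes MKI67 (1.72), TOP2A (1.11) and CCNB1 (0.54) and the lamin gene LMNB1 (0.62) were higher too. MKI67 was at 3.85 to 4.36 CPM in siNTRK2_Sen, 0.814 to 1.64 CPM in siCtrl_Sen, 1.95 to 2.79 CPM in siBDNF_Sen and 15.8 to 16.9 CPM in siCtrl_Prolif. The part of these differences in the member results was not tested.

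Silencing BDNF came with more LIF mRNA, the single member called of 9, where 20.5% of tested genes were called (10.3% higher, 10.2% lower) and no member but 0.609% of tested genes passed an absolute log2 fold change of 1. LIF was at 77.6, 80.0 and 71.0 CPM, the highest of the 4 groups and above the 61.6 to 70.6 CPM of siCtrl_Sen by a narrow gap. Its log2 fold change was 0.23 (SE 0.0594, adjusted p = 0.00567, edgeR), and 0.20 both without siCtrl_Sen replicate 1 (adjusted p = 0.0506) and without siBDNF_Sen replicate 2 (adjusted p = 0.0518). The libraries of both groups did not overlap in 4 of 9 members, as for 37.3% of tested genes.

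The remaining ligands did not pass the test with siBDNF. CLCF1 was at 15.3, 14.9 and 14.5 CPM, above all siCtrl_Sen libraries (log2 fold change 0.18, 95% interval 0.03 to 0.33, adjusted p = 0.0902, edgeR). IL11 was at 29.7, 28.2 and 28.2 CPM, also above all of them (0.09, interval -0.03 to 0.20). IL6 was at 6.99, 6.16 and 7.15 CPM, on both sides of the siCtrl_Sen libraries (0.01, interval -0.19 to 0.21). By quantitative PCR, the paper reports a decline of IL6 mRNA after silencing either TrkB or BDNF, at early and late senescence. In these libraries IL6 was called lower with siNTRK2 only, and that call did not hold in all alternatives.

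The receptors and SOCS3 did not pass it either. IL6ST was at 480, 463 and 485 CPM, above all siCtrl_Sen libraries (log2 fold change 0.15, 95% interval 0.02 to 0.29, adjusted p = 0.108, edgeR). LIFR was at 31.5, 26.7 and 32.2 CPM (0.16, interval 0.01 to 0.31), OSMR at 132, 130 and 134 CPM (0.02, interval -0.07 to 0.11), IL6R at 11.6, 10.5 and 11.3 CPM (0.09, interval -0.11 to 0.28) and SOCS3 at 27.7, 26.8 and 27.2 CPM (-0.07, interval -0.22 to 0.08). In these 4 genes the groups overlapped. Scaling by library totals alone called 4 members, all higher, in place of 1: LIF, CLCF1, IL6ST and LIFR. With that scaling the median log2 fold change of all 21518 tested genes moved from 0.004 to 0.061, and 4527 of them were called. IL6ST was also called with no filter on low counts (adjusted p = 0.00434), with only these 2 groups in the fit (0.0138) and without siCtrl_Sen replicate 2 (0.0376). LIFR was called without siBDNF_Sen replicate 2 (0.027).

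Set directly against each other, cells with siNTRK2 held less LIF, CLCF1, LIFR and IL6 mRNA than cells with siBDNF, and more IL6R mRNA. These 5 of 9 members (1 higher, 4 lower) compare with 16.7% of tested genes called, 8.84% higher and 7.86% lower, and none passed an absolute log2 fold change of 1 (1.16% of tested genes). In 8 of 9 members the groups did not overlap, as for 34.2% of tested genes. LIF differed most, at 52.9 to 58.9 CPM against 71.0 to 80.0 CPM (log2 fold change -0.42, SE 0.0597, adjusted p = 1.15e-05, edgeR). LIFR (-0.32, SE 0.0726, adjusted p = 0.00287) and CLCF1 (-0.29, SE 0.0744, adjusted p = 0.0087) were lower too, and the calls of LIF, LIFR and CLCF1 held in all 13 alternatives.

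IL6 was 0.30 lower on the log2 scale with siNTRK2 than with siBDNF (SE 0.100, adjusted p = 0.0418, edgeR), a call that held in 6 of 13 alternatives. It was lost without siNTRK2_Sen replicate 1 (adjusted p = 0.152) or 3 (0.0829) and without siBDNF_Sen replicate 1 (0.136) or 3 (0.196). IL6R was 0.28 higher (SE 0.0939, adjusted p = 0.0434), a call that held in 7 of 13 and was lost without siNTRK2_Sen replicate 1 (0.113) or 2 (0.0882) and without siBDNF_Sen replicate 1 (0.0608), 2 (0.176) or 3 (0.0959). IL11 (-0.14, 95% interval -0.26 to -0.02), IL6ST (-0.14), SOCS3 (-0.15) and OSMR (-0.05, interval -0.14 to 0.04) did not pass the test. Scaled by library totals alone, 5 members were again called, 0 higher and 5 lower, with IL11 (adjusted p = 0.0345) called and IL6R (0.103) not. The median log2 fold change of all tested genes was then -0.042, against -0.004 in the main fit.

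The surrounding pathway was described with 55 further genes, of which 54 were matched by symbol and 51 tested. They comprised ligands, receptors, JAK-STAT proteins, inhibitors, receptor sheddases, genes that respond to STAT3 and regulators of IL6. In senescent against proliferating cells 37 were called (15 higher, 22 lower), with siNTRK2 13 (2 higher, 11 lower), with siBDNF 14 (10 higher, 4 lower), and in siNTRK2_Sen against siBDNF_Sen 12 (1 higher, 11 lower). The background of all tested genes is 58.1%, 21.1%, 20.5% and 16.7%, in the same order. Scaled by library totals alone, 18 were called with siBDNF (15 higher, 3 lower) and 15 in siNTRK2_Sen against siBDNF_Sen (0 higher, 15 lower). That scaling also shifted the median log2 fold change of all tested genes, to 0.061 and -0.042 in these comparisons.

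Among the other ligands, 2 of the 3 tested were higher in senescent cells, as were 29.8% of all tested genes. CTF1, encoding the LIFR ligand cardiotrophin-1, was higher in senescence (log2 fold change 0.77, SE 0.102, adjusted p = 5.37e-07, edgeR) and lower with siNTRK2 (-0.42, SE 0.0998, adjusted p = 0.00339). EBI3, a subunit of IL-27, was at 0.285 to 0.676 CPM in proliferating and 2.23 to 3.19 CPM in senescent cells (2.65, SE 0.237, adjusted p = 5.77e-10). The ligand genes OSM, IL27 and IL31 had 0 to 14 counts per library and were not tested, so that OSM and IL31, the known ligands of OSMR, were not measurable at this depth.

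Of the 4 other receptors, the IL-11 receptor IL11RA (log2 fold change -0.30, adjusted p = 0.00559, edgeR) and the IL-27 receptor IL27RA (-0.65, adjusted p = 5.4e-04) were lower in senescence, in the direction of the 4 member receptors. IL27RA was higher with siNTRK2 (0.47, adjusted p = 0.023). CNTFR, the private receptor of CLCF1 and of ciliary neurotrophic factor, was called higher in senescence on 0, 5 and 0 against 6, 14 and 27 counts. The metalloproteases ADAM10 and ADAM17, which can cleave IL6R from the cell surface, were both lower in senescence (-0.52 and -0.26, adjusted p = 5.12e-10 and 0.00226). ADAM10 was higher with siNTRK2 (0.14, adjusted p = 0.0307) and ADAM17 with siBDNF (0.28, adjusted p = 0.0041).

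STAT3, the main transducer of gp130, was at 127, 128 and 130 CPM in proliferating cells and at 180, 183 and 183 CPM in senescent cells (log2 fold change 0.51, SE 0.0405, adjusted p = 7.6e-11, edgeR). The kinase JAK1 (-0.29), STAT5A (-0.41) and STAT5B (-0.46) were lower. In this list 5 of 7 JAK-STAT genes were called (2 higher, 3 lower), against 58.1% of all tested genes.

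The inhibitors related to SOCS3 were mostly lower in senescent cells, with 7 of 10 tested genes called, 1 higher and 6 lower. The shares over all tested genes were 58.1% called and 28.3% lower. SOCS1 was at 18.2, 17.1 and 20.8 CPM in proliferating and at 2.28, 2.95 and 2.72 CPM in senescent cells (log2 fold change -2.81, SE 0.170, adjusted p = 3.48e-13, edgeR). The cytokine-inducible inhibitor CISH (-1.504), the phosphatase PTPN2 (-0.85) and SOCS2 (-0.66) followed. SOCS2 was lower still with siNTRK2 (-0.27, adjusted p = 0.0207) and with siBDNF (-0.46, adjusted p = 2.9e-04). SOCS4 was higher with siBDNF (0.24, adjusted p = 0.0244) and, together with PTPN2, lower with siNTRK2 than with siBDNF (-0.42 and -0.43).

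**Figure D3:**
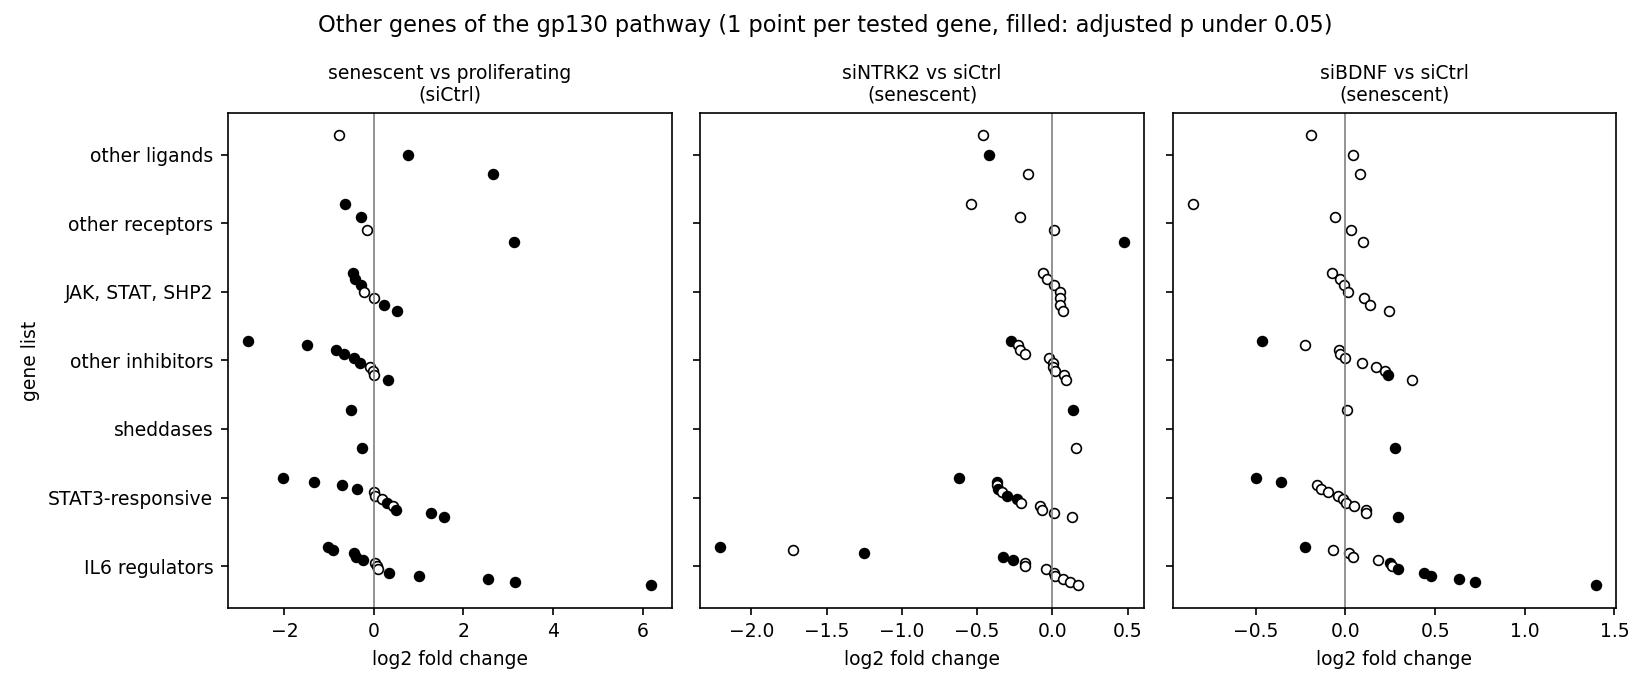
Log2 fold change (x axis, a scale per panel) of the tested genes of each pathway list (y axis), one point per gene, filled at an adjusted p under 0.05, in 3 comparisons: senescence, siNTRK2 and siBDNF. In senescence SOCS1 lies at -2.81 and IL1A at 3.14, the latter on 4, 7 and 0 counts in the proliferating libraries. The GATA4 point, on 0 counts in all proliferating libraries, is no bound.

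Genes that STAT3 can induce went both ways in senescence, with 4 higher and 4 lower of 12 tested, against 29.8% and 28.3% of all tested genes. The kinase PIM1 (log2 fold change -2.04, adjusted p = 3.18e-16, edgeR) and the transcription factor CEBPD (-1.34, adjusted p = 8.58e-11) were lower, and the metalloproteinase inhibitor TIMP1 (1.57, adjusted p = 3.8e-20) and the AP-1 gene FOS (1.27, adjusted p = 7.9e-04) were higher. With siNTRK2, 5 of 12 were lower and none higher, against 21.1% of all tested genes called. Among the lower ones were the chemokine CCL2 (-0.62, adjusted p = 3.6e-06), BCL3 (-0.37), JUNB (-0.36) and CEBPB (-0.30). With siBDNF, CCL2 (-0.50, adjusted p = 6.77e-05) and CEBPD (-0.36) were lower and JUNB (0.30) was higher.

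Several regulators of IL6 differed between the siRNAs. The upstream cytokine IL1A had 38, 23 and 42 counts in siCtrl_Sen, 5, 9 and 7 in siNTRK2_Sen, 48, 107 and 116 in siBDNF_Sen and 4, 7 and 0 in siCtrl_Prolif. Its CPM were thus lower with siNTRK2 (log2 fold change -2.21, SE 0.443, adjusted p = 7.33e-04, edgeR) and higher with siBDNF (1.40, SE 0.343, adjusted p = 0.00441), without overlap of the groups. IL1B was at 2.42, 3.51 and 3.06 CPM in siCtrl_Sen, 1.03, 1.61 and 1.15 CPM in siNTRK2_Sen and 3.75, 5.04 and 5.04 CPM in siBDNF_Sen. It was lower with siNTRK2 (-1.25, SE 0.202, adjusted p = 6.54e-05) and higher with siBDNF (0.63, SE 0.181, adjusted p = 0.0134).

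In senescence 10 of 13 regulators were called, 5 in each direction, where 58.1% of all tested genes were called. IL1A (log2 fold change 3.14) and IL1B (2.54) were higher, and TNFAIP3, encoding the NF-κB feedback inhibitor A20, was lower (-1.02, adjusted p = 1.99e-09, edgeR). GATA4 was called on 3, 13 and 12 counts against 0 in all proliferating libraries. With siNTRK2 4 of 13 were called, all lower, against 21.1% of all tested genes called. They included the NF-κB subunit RELA (-0.32, adjusted p = 3.47e-05, edgeR) and its inhibitor NFKBIA (-0.26, adjusted p = 8.21e-04). With siBDNF 8 of 13 were called, 7 of them higher, against 20.5% of all tested genes called. Higher ones included ZC3H12A (0.72, adjusted p = 5.77e-04), the nuclease that degrades IL6 mRNA, and NFKBIZ (0.48, adjusted p = 1.91e-04), a coactivator of NF-κB. Directly compared, 6 of 13 were lower with siNTRK2 than with siBDNF and none higher, against 7.86% of all tested genes lower. The largest were IL1A (-3.60) and IL1B (-1.89), then ZC3H12A (-0.76) and NFKBIZ (-0.66).

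**Figure D4:**
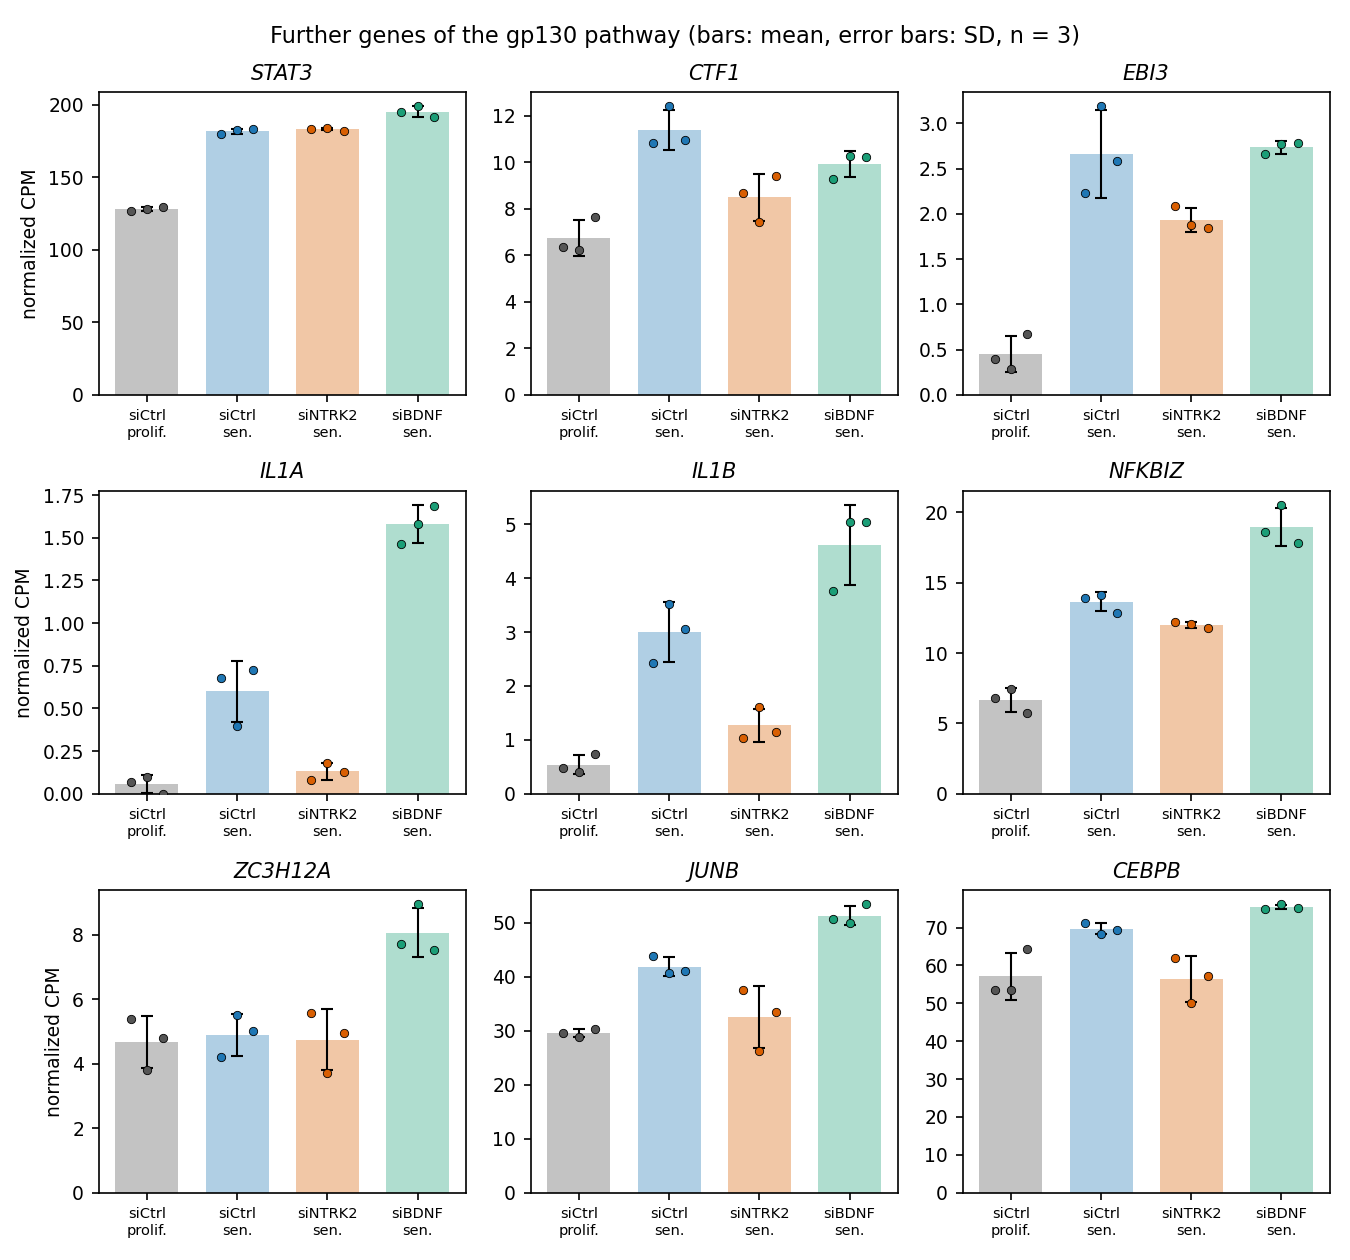
Normalized CPM (y axis, linear, from 0, a scale per panel) of 9 ligand, STAT3, target and regulator genes in the 4 groups; bars are means, error bars SD (n = 3), points single libraries. STAT3 is lowest in the proliferating libraries (127 to 130 CPM), while IL1A, IL1B and ZC3H12A are highest in siBDNF_Sen.

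For each member, the tested genes with the most similar profile over the 12 libraries were found as those with the smallest root-mean-square distance between centered log2 CPM values. For CLCF1 these were GM2A, SLC16A4 and ABLIM1 at distances of 0.0634 to 0.0726, small beside the spread of CLCF1 itself (0.353). For LIF they were BHLHE40, IER3-AS1 and ZFTA (0.0583 to 0.0688, own spread 0.203), and for IL6 HEBP2, DNAJC25 and PHYH (0.0733 to 0.0776, own spread 0.201). IL11 was closest to TXNDC12, ACLY and RALB (0.0342 to 0.0386) and SOCS3 to EFHD2, APH1A and CBR1-AS1 (0.0621 to 0.0644). Among the receptors, IL6R was closest to CCDC28B, ZNF326 and PIK3C2B (0.0783 to 0.0845), IL6ST to MOB1A, GNAQ and GTF2A1 (0.0369 to 0.0507), OSMR to MAPRE1, GSDME and XRN2 (0.0318 to 0.0333) and LIFR to UBLCP1, BPNT2 and SMAD5 (0.0674 to 0.0755). The 12 libraries share 4 groups, so these distances describe the group pattern and its spread.

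The other members with overlapping exons were LIF, OSMR and LIFR, each with antisense genes at lower levels. LIF (chr22:30636442-30642748) shares 86 exonic bases with LIF-AS1 and 83 with LIF-AS2, of which LIF-AS2 was at 3.30 to 5.35 CPM and, like LIF, lower in siNTRK2_Sen than in siBDNF_Sen (log2 fold change -0.47, adjusted p = 0.0198, edgeR). OSMR (chr5:38845960-38945698) shares 229 exonic bases with RICTOR, at 18.8 to 26.8 CPM and higher with siBDNF (0.33, adjusted p = 0.00315), where OSMR did not pass the test. LIFR (chr5:38474770-38608456) shares 629 with LIFR-AS1, at 0.399 to 0.736 CPM. IL11 (chr19:55875750-55881831), IL6R (chr1:154377669-154441926) and SOCS3 share no exonic base with another annotated gene.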

How the data were processed

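Per the labels, WI-38 RNA was made into stranded poly(A) libraries. The authors deposited a gene-level read count table for each library: bcl2fastq 2.20.0.422, Cutadapt, STAR 2.4.0j against hg19 with an Ensembl annotation, then featureCounts 1.6.4. The counts are whole numbers, not normalized, and how multimapping reads or strand were handled is not given in the sources used here. Ensembl identifiers were matched to symbols for 55538 of 57773 genes.

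Counts of all 12 libraries were fitted in 1 model with 1 term per group, using edgeR 4.0.16 in R 4.3.3 (TMM scaling, default expression filter over the 4 groups, quasi-likelihood test), and p-values were adjusted by Benjamini-Hochberg over all 21518 tested genes. CPM values are TMM-normalized. Genes were called at an adjusted p under 0.05, and those with over 1 log2 unit of change were counted separately. Replicates were compared for duplication before they were averaged, and none was a duplicate. The study's methods state in general that experiments were repeated independently, but the labels do not say whether these replicates were separate cultures. The p-values set each group difference against the spread between these libraries, estimated over all 4 groups and moderated across genes. If the replicates were not separate cultures, that spread leaves out the variation between cultures. Floors cover counting error only. Alternatives were DESeq2 1.42.0 (the authors' choice of test), other scalings and filters, a fit of 2 groups only, a replicate block and leaving out each library. The test was checked on simulated counts, with a pass rule that covered only changes of at least 1 log2 unit. All member differences were smaller, so that rule does not bear on their calls.

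The members and gene lists were chosen with earlier results of these data known. All 9 members are named. From each list, at most 4 called genes per comparison are named, by size of change, with partner subunits where a member needs them, and 3 nearest profiles per member. A listed inhibitor had no symbol match and was left out, and some listed genes and start regions are not reported here.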

Additional observations from a re-analysis of the deposited data

Results flagged for a closer look

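For 5 members the response to siNTRK2 differed from the response to siBDNF by the test of the difference itself (edgeR, siNTRK2_Sen against siBDNF_Sen, in which the shared siCtrl_Sen libraries cancel). The difference of the log2 fold changes, siNTRK2 minus siBDNF, was -0.42 for LIF, -0.32 for LIFR, -0.29 for CLCF1, -0.30 for IL6 and 0.28 for IL6R. For LIF the log2 fold change was -0.19 with siNTRK2 and 0.23 with siBDNF, both called.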

How the results depend on the processing

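Of 468 results for a single member under an alternative, 412 kept their direction and their side of the threshold, 40 lost the call, 10 gained it and 6 changed sign. Scaling by library totals alone called 2 members with siNTRK2 and 4 with siBDNF. With siBDNF, 2 members were called both with no filter on low counts and with only the 2 compared groups in the fit. With 1 library left out, the number of members called was 8 to 9 in senescence, 1 to 3 with siNTRK2, 0 to 2 with siBDNF and 3 to 4 in siNTRK2 against siBDNF. The sign changes were all of uncalled values near 0 with 1 library left out, whose ranges of log2 fold change were -0.0236 to 0.0723 (IL6ST) and -0.0659 to 0.00286 (OSMR) with siNTRK2, and -0.00509 to 0.241 (IL6R) and -0.0403 to 0.0812 (IL6) with siBDNF. No shared deviation by replicate number was seen. Same-numbered libraries of different groups had a mean correlation of 0.00184 (-0.0396 to 0.0270, 18 pairs), and 4 of 12 libraries correlated best with their own number. A pairing in handling that left no such trace could not be seen this way. With a replicate block, IL6 in siNTRK2 against siBDNF was not called (log2 fold change -0.30, adjusted p = 0.0508, edgeR), and no other member's call changed. No alternative scaling moved the median of all genes by over 0.1 (log2). Depth limits OSM, IL27, IL31, CNTFR, GATA4 and NTRK2, which are at or near the floor of 3 counts. It also limits IL1A in siCtrl_Prolif (4, 7 and 0 counts) and in siNTRK2_Sen (5, 9 and 7 counts), so that its fold changes against these groups are imprecise.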
